A study of Mus musculus with 2 samples.

Results

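Collagens are the main fibre and sheet proteins of the extracellular matrix, and each is built from 3 alpha chains wound into a helix. The genes described here are those that encode the chains. They were chosen as the protein-coding genes of the newer of the annotations deposited, GENCODE M21, whose symbol has the form Col, a type number, a and a chain number. This gave 44 genes of the 55536 genes in the table, among 22028 protein-coding genes. By the structure of their products they fall into 11 fibrillar chains, 6 basement membrane chains (type IV), 9 fibril-associated chains with interrupted helices (FACIT) and 18 others.

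The tissue was heart of B6NCrl mouse embryos at day 12.5, for which the labels give no treatment and no altered gene, from males and females pooled. Poly(A)+ RNA from 10 ng of starting material was sequenced in 2 libraries, which are biological replicates of 1 group and carry the same donor identifier. ERCC spike-in RNAs, synthetic transcripts of known sequence, were present in both libraries. With a single group no conditions could be compared, so the values below describe levels, the balance between chains, transcripts and the difference between replicates.

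Every collagen chain holds stretches in which glycine recurs at every residue that heads a triplet, written Gly-X-Y, because only glycine fits the crowded centre of the helix. Fibrillar chains have a long unbroken stretch and pack side by side into cable-like fibrils, while type IV chains have many breaks and join into the flexible mesh of basement membranes. In the heart at this stage, collagens are known from the cushions that become the valves, the epicardium and the sheets beneath endothelium and around muscle cells.

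The difference between these designs is visible in the coding sequences, and 4 exons from abundant chains are shown for it. They are given from 5′ to 3′ in the sense of the gene, from GENCODE M21 on mm10, and capitals mark in-frame GGN codons, which encode glycine. The exons of the 3 fibrillar chains lie at chr1:45334761-45334814 on the plus strand (Col3a1, exon 26), chr11:94944355-94944408 on the plus strand (Col1a1, exon 26) and chr6:4524117-4524170 on the plus strand (Col1a2, exon 27). The exon of the type IV chain lies at chr8:11226950-11227141 on the minus strand (Col4a1, exon 25).
Col3a1: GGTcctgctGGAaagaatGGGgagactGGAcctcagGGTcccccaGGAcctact
Col1a1: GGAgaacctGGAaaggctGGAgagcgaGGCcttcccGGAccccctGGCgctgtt
Col1a2: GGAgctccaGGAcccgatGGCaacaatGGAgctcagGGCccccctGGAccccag
Col4a1: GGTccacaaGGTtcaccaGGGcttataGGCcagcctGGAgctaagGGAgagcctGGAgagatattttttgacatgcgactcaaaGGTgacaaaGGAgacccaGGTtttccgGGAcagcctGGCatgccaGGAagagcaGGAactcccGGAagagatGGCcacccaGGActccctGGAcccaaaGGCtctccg
Each fibrillar exon is 54 bases long and holds 6 triplets with glycine at the head of each. The Col4a1 exon is 192 bases long with 19 GGN codons, and a break of 21 bases from its base 64 interrupts the repeat.

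The 2 libraries held 35520161 expected counts in replicate 1 and 32577548 in replicate 2, of which 96.4% lay on named genes in each. Expected counts are estimated reads per gene, and TPM, the scale of transcript abundance used here, divides them by transcript length and by a library-wide total. All 10 heart muscle markers were detected, and their median was 4267 TPM in replicate 1 and 4290 in replicate 2. A call between the libraries needed an adjusted p under 0.05 and an absolute log2 ratio of at least 1, in a test described below. Of 10 liver markers, 9 were called higher in replicate 1, beside 0.863% of all genes tested. None was called lower, beside 0.707% of all genes. Summed levels of the liver list were 178.6 TPM in replicate 1 and 38.5 TPM in replicate 2. Of 7 lung and foregut markers 5 were tested and 1 was called lower in replicate 1, beside the same 0.707%. It was the lung factor Nkx2-1, with 5 counts in replicate 1 and 49 in replicate 2.

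Collagen chain genes counted as detected where both libraries gave 1 TPM or more. This held for 30 of 44 members (68.2%), beside 56.6% of all protein-coding genes. All 44 members together stood at 2035.2 TPM in replicate 1 and 2023.4 in replicate 2 (2029 ± 8.29, SD, n = 2). In counts they took 0.756% of gene reads in replicate 1 (95% Clopper-Pearson interval 0.753 to 0.759%) and 0.743% in replicate 2 (0.740 to 0.746%), where intervals cover counting error only. In a tissue of mixed cells, fewer cells of a type and less RNA per cell cannot be told apart.

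The total was carried by few genes. The 3 highest members held 53.4% of collagen TPM, the 5 highest 71.7% and the 10 highest 87.2%. In levels, 5 members reached a TPM of 100 in both libraries, 14 more reached 10, and 11 more reached 1. The share of members at 100 or more may be read beside the 6.14% of all protein-coding genes at that level. Another 2 members reached a TPM of 1 in replicate 2 alone, and 12 stayed under 1 in both libraries.

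Fibrillar chains formed the largest class, with 60.9% of collagen TPM in replicate 1 and 59.1% in replicate 2 (60.03 ± 1.25%, SD, n = 2). Basement membrane chains held 17.1% and 18.0% of it in replicates 1 and 2, the other classes together 16.5% and 17.4%, and FACIT chains 5.47% and 5.50%. Over protein-coding transcripts alone the FACIT share averaged 4.24%. Detection was reached by 8 of 11 fibrillar chains, 4 of 6 basement membrane chains, 6 of 9 FACIT chains and 12 of 18 others.

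**Figure D1:**
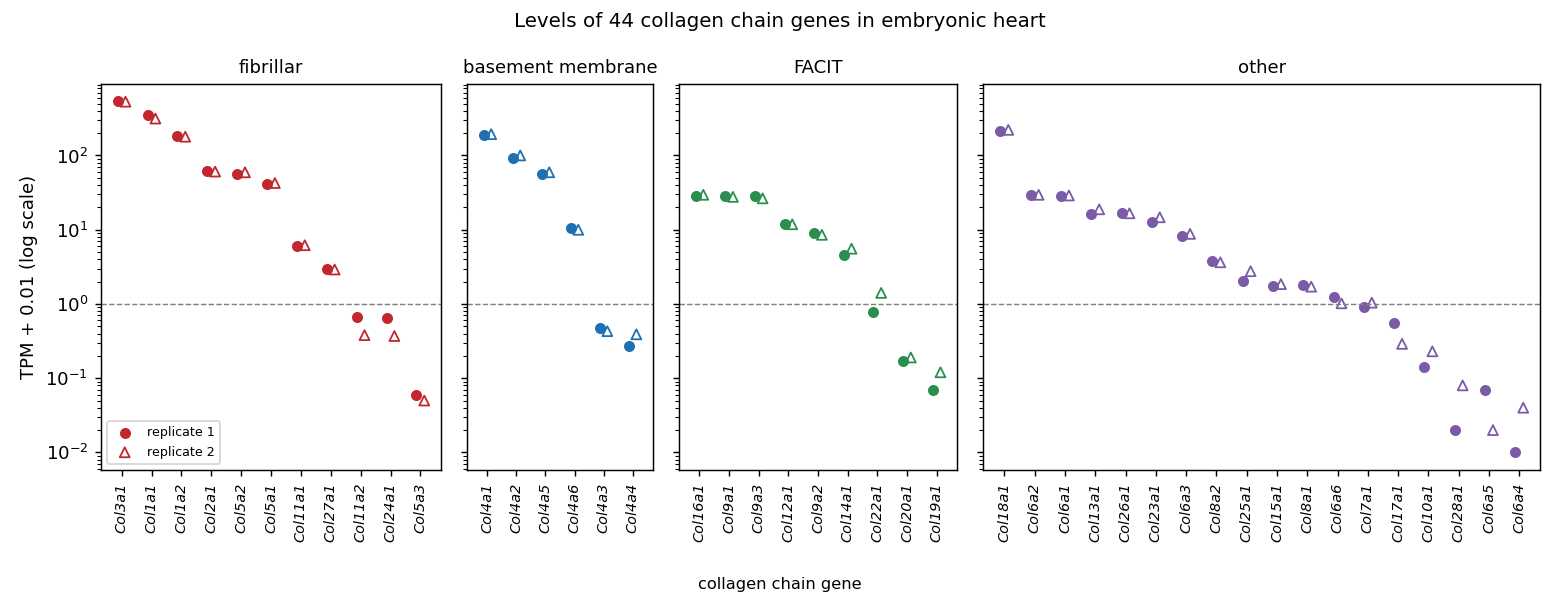
Level of each collagen chain gene as TPM plus 0.01 on a log scale, by class, with filled circles for replicate 1 and open triangles for replicate 2; the dashed line marks the detection level of 1 TPM. Points of the 2 libraries nearly coincide above 1 TPM, and 5 genes stand above 100 TPM.

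Among fibrillar chains, those of the main tissue fibrils were the most abundant. Col3a1 (ENSMUSG00000026043.18, chromosome 1, 45311538 to 45349706 on mm10, the build of all gene positions here, plus strand), whose product forms the type III homotrimer of stretchable tissues, stood at 538.9 TPM in replicate 1 and 530.9 in replicate 2. Col1a1 (ENSMUSG00000001506.10, chromosome 11, 94936224 to 94953042, plus strand), the alpha-1 chain of type I, stood at 348.9 TPM in replicate 1 and 314.4 in replicate 2. Col1a2 (ENSMUSG00000029661.16, chromosome 6, 4504814 to 4541544, plus strand), its partner chain, stood at 181.9 TPM in replicate 1 and 179.0 in replicate 2. Their order was the same in both libraries, and Col3a1 ranked number 206 among protein-coding genes by mean TPM. Of the Col3a1 level, 89.0 TPM in replicate 1 and 90.4 in replicate 2 lay on a coding fragment of 737 bases with 1401 and 1287 counts. The leading Col3a1 transcript, of 5564 bases, stood at 443.7 TPM in replicate 1 and 432.4 in replicate 2.

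Type V chains, which help to start type I fibrils and limit their width, were detected for 2 of 3 genes. Col5a2 had 56.1 TPM in replicate 1 and 59.3 in replicate 2, and Col5a1 had 41.8 TPM in replicate 1 and 42.6 in replicate 2. Col5a3, the less widespread type V chain, had 8 counts in replicate 1 and 3 in replicate 2, or 0.045 TPM on average. Among the remaining fibrillar genes, those of types II and XI are known best from cartilage. Col2a1 (chromosome 15, 97975602 to 98004695, minus strand), the main cartilage collagen that is also present in embryonic heart cushions, had 61.8 TPM in replicate 1 and 60.7 in replicate 2. Col11a1, which forms the core of cartilage fibrils, had 5.99 TPM in replicate 1 and 6.17 in replicate 2. Its partner Col11a2 stood at 0.65 TPM in replicate 1 and 0.37 in replicate 2, but averaged 1.22 in the authors' posterior mean TPM, by which it counted as detected. The fibrillar chains of types XXVII and XXIV have shorter helices than the rest. Col27a1 had 2.98 TPM in replicate 1 and 2.90 in replicate 2, and Col24a1 had 0.63 and 0.36 TPM in replicates 1 and 2.

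Col2a1 was the seventh highest collagen while most cartilage markers were near 0. Of 8 such markers only Hapln1, a link protein of hyaluronan-rich matrix, was detected, at 34.3 TPM in replicate 1 and 39.3 in replicate 2. Acan, the aggrecan core protein, had 0.47 TPM in replicate 1 and 0.73 in replicate 2. Matn1 had 3 counts in replicate 1 and 2 in replicate 2, and Snorc and Ucma had none. The summed level of the list was 37.0 TPM in replicate 1 and 41.7 in replicate 2. Of 6 bone markers only Alpl was detected, at 1.71 TPM in replicate 1 and 1.35 in replicate 2, and Ibsp and Bglap had no counts.

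Basement membrane chains are described by the trimers they form. Col4a1 (ENSMUSG00000031502.11, chromosome 8, 11198423 to 11312826, minus strand) and Col4a2 make the common type IV trimer found beneath nearly all endothelium and epithelium. Col4a1 stood at 188.2 TPM in replicate 1 and 193.7 in replicate 2, and Col4a2 at 91.8 TPM in replicate 1 and 100.1 in replicate 2. Col4a5 and Col4a6, which form a trimer of smooth muscle and some epithelial membranes, were lower. Col4a5 had 56.4 TPM in replicate 1 and 59.4 in replicate 2, and Col4a6 had 10.5 TPM in replicate 1 and 9.97 in replicate 2. Col4a3 and Col4a4, which join Col4a5 in the filtering membrane of the mature kidney, were under 1 TPM in both libraries. Col4a3 had 0.47 and 0.42 TPM in replicates 1 and 2, and Col4a4 had 0.26 and 0.38 TPM.

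FACIT chains sit on the surface of fibrils rather than forming them. The 3 chains of type IX, which coats type II fibrils, were all detected. Col9a1 had 28.0 TPM in replicate 1 and 27.7 in replicate 2, Col9a3 had 28.8 and 26.4 TPM, and Col9a2 had 9.09 and 8.52 TPM in replicates 1 and 2. Col16a1, a widely expressed FACIT-like chain, had 28.1 TPM in replicate 1 and 29.5 in replicate 2. Col12a1 and Col14a1, chains of dense connective tissue that bridge type I fibrils, stood lower. Col12a1 had 11.8 TPM in each library, and Col14a1 had 4.58 TPM in replicate 1 and 5.54 in replicate 2. Col22a1, a chain of muscle-tendon junctions, had 0.77 TPM in replicate 1 and 1.40 in replicate 2, on either side of the detection level. Col20a1 had 0.17 TPM and Col19a1 0.085 TPM on average.

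The remaining 18 chains belong to several small families, and 1 gene held most of their TPM. Col18a1 (ENSMUSG00000001435.15, chromosome 10, 77052178 to 77166548, minus strand), a basement membrane collagen with heparan sulfate chains and the source of endostatin, had 212.3 TPM in replicate 1 and 221.4 in replicate 2. It was the third highest collagen. Its relative Col15a1, a chain found in muscle and vessel basement membranes, had 1.73 TPM in replicate 1 and 1.84 in replicate 2, or 1.79 on average, and 2.91 on average in the authors' posterior mean TPM.

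Beaded filaments of type VI link cells to the matrix around them. Col6a1 had 28.1 TPM in replicate 1 and 28.9 in replicate 2, and Col6a2 had 29.7 TPM in replicate 1 and 29.5 in replicate 2. Col6a3, the long chain that completes the common type VI trimer, had 8.23 TPM in replicate 1 and 8.78 in replicate 2. Of its relatives, Col6a6 had 1.24 TPM in replicate 1 and 1.01 in replicate 2. Col6a5 had 7.09 expected counts in replicate 1 and 3.03 in replicate 2, and Col6a4 had 0 in replicate 1 and 5 in replicate 2. No level is read from counts this low.

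Transmembrane collagens span the cell surface with the helix outside. Col13a1 had 16.1 TPM in replicate 1 and 18.8 in replicate 2. Col23a1 had 12.9 TPM in replicate 1 and 14.7 in replicate 2. Col25a1, which in the mouse is needed for motor nerves to reach muscle, had 2.01 TPM in replicate 1 and 2.75 in replicate 2. Col17a1, the hemidesmosome collagen of skin, had 0.54 TPM in replicate 1 and 0.28 in replicate 2.

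The last members fall in several small groups. Col8a1 and Col8a2, short chains of sheet-like networks beneath endothelium, had 1.77 and 3.83 TPM in replicate 1 and 1.70 and 3.63 TPM in replicate 2. Col10a1, the chain of growth plate cartilage, had 10 counts in replicate 1 and 15 in replicate 2. It lies wholly within Nt5dc1 on the opposite strand, which had 330 and 277 counts in replicates 1 and 2. No source used here says whether counting used the strand. The authors' posterior standard deviation of the Col10a1 count was 0 in both libraries. Whether reads from Nt5dc1 RNA entered that count was not tested. Col7a1, the anchoring fibril chain of skin, had 0.89 TPM in replicate 1 and 1.03 in replicate 2, and its average of 1.70 in posterior mean TPM made it detected on that scale. Col26a1, a short secreted chain first described in testis and ovary, had 16.9 TPM in replicate 1 and 16.6 in replicate 2, and Col28a1 had 1 count in replicate 1 and 6 in replicate 2.

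The balance between chains of a trimer was described by the log2 ratio of TPM + 0.5 within each library, as a mean with its standard error over both libraries. Linear ratios are of TPM with nothing added. Ratios of different genes also carry differences in coverage along transcripts that replicates share. They are ratios of RNA, and numbers of protein chains were not measured, so a match or mismatch with a trimer is not read from them. The ratio kept its sign in both libraries for all 21 pairs, and 15 pairs had the first chain higher.

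Type I collagen is usually made of 2 alpha-1 chains and 1 alpha-2 chain. The linear TPM ratio of Col1a1 to Col1a2 was 1.92 in replicate 1 and 1.76 in replicate 2 (log2 0.87 ± 0.06, SE, n = 2). The type IV trimer of Col4a1 and Col4a2 has the same make-up, and its linear ratio was 2.05 in replicate 1 and 1.94 in replicate 2 (log2 0.99 ± 0.04). Col5a1 over Col5a2, a trimer with the same usual make-up, had a linear ratio of 0.745 in replicate 1 and 0.718 in replicate 2. Col5a2 neighbours Col3a1 and lies tail to tail with it 24614 bases away, and Col3a1 was 9.61 times as abundant in replicate 1 and 8.95 times in replicate 2.

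Type VI is made of Col6a1, Col6a2 and Col6a3 in equal numbers. Col6a1 and Col6a2 were close, at a linear ratio of 0.946 in replicate 1 and 0.980 in replicate 2. Col6a3 was lower than both, with Col6a1 over Col6a3 at 3.42 in replicate 1 and 3.29 in replicate 2. Over protein-coding transcripts alone their log2 ratio was 2.40, against 1.69 over all transcripts, and that of Col6a2 over Col6a3 was 2.44 against 1.74. The type IX chains, which also combine in equal numbers, showed a low Col9a2. Col9a1 over Col9a2 was 3.09 in replicate 1 and 3.25 in replicate 2, and Col9a2 over Col9a3 was 0.316 and 0.322.

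The remaining pairs ranged widely. Col2a1 over Col11a1 was 10.3 in replicate 1 and 9.84 in replicate 2, and Col11a1 over Col5a1 was 0.144 and 0.145. Col11a1 over Col11a2 was less stable, at 9.22 in replicate 1 and 16.7 in replicate 2, and Col11a2 had only 44 and 22 counts. Their log2 ratio was 2.72 in TPM and 2.03 in posterior mean TPM. Col18a1 over Col15a1 was 123 in replicate 1 and 120.3 in replicate 2, with a log2 ratio of 6.57 after adding 0.5 and of 5.96 in posterior mean TPM. Col5a1 over Col5a3 had larger linear ratios, 835 in replicate 1 and 1064 in replicate 2, but rested on 8 and 3 counts of Col5a3. The order of these pairs depends on what is added, since Col5a1 over Col5a3 had a log2 ratio of 6.29 with 0.5 added and 8.19 with 0.1, and Col18a1 over Col15a1 had 6.85 with 0.1. Col8a1 over Col8a2 was 0.462 in replicate 1 and 0.468 in replicate 2, and Col12a1 over Col14a1 was 2.57 and 2.13. Over protein-coding transcripts alone the log2 ratio of Col12a1 over Col14a1 was 0.35, against 1.15 over all transcripts. Col24a1 over Col27a1 was 0.211 in replicate 1 and 0.124 in replicate 2.

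**Figure D2:**
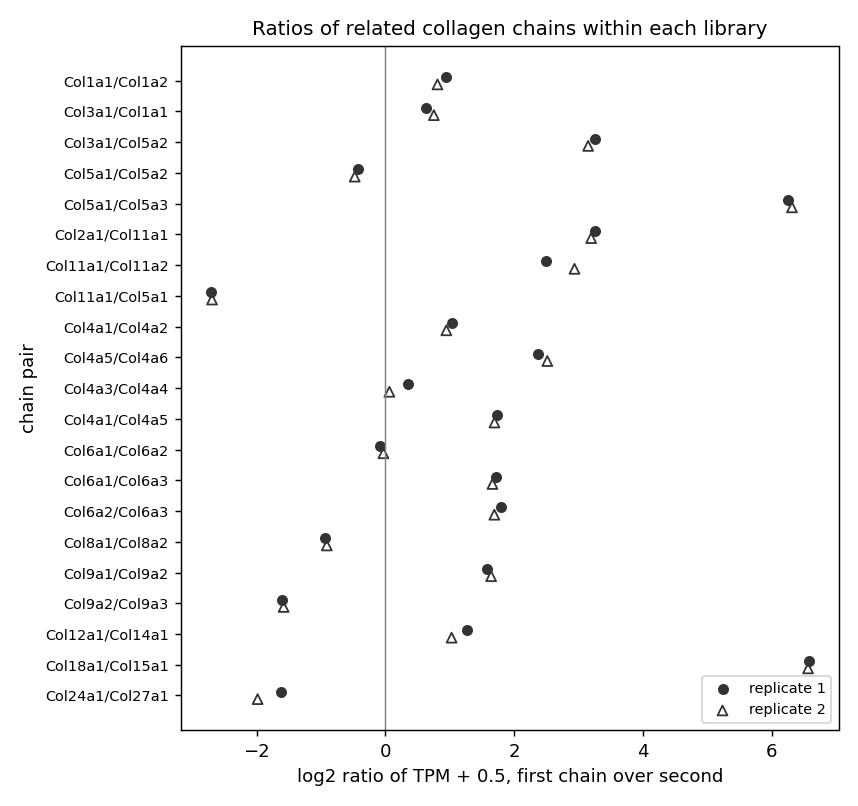
Log2 ratio of TPM plus 0.5 of the first chain over the second for 21 pairs, with filled circles for replicate 1 and open triangles for replicate 2. Col1a1 over Col1a2 and Col4a1 over Col4a2 lie near 1 on this scale, and Col18a1 over Col15a1 lies farthest right at 6.57.

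Several members are neighbours in the genome, and neighbours ranged from close to far apart in level. The 6 type IV genes form 3 pairs that point away from each other. Col4a1 and Col4a2 overlap by 22 bases at their starts on chromosome 8, Col4a4 and Col4a3 start 71 bases apart on chromosome 1, and Col4a6 and Col4a5 start 1308 bases apart on chromosome X. Col4a1 over Col4a2 was 1.99 on average, and Col4a5 over Col4a6 was 5.40 in replicate 1 and 5.96 in replicate 2. Of Col4a5 TPM, 33.85% in replicate 1 and 36.58% in replicate 2 lay on Col4a5-204, a shorter coding transcript of 3511 bases. Col4a5-202, of 6536 bases, had 37.0 TPM in replicate 1 and 37.4 in replicate 2, beside 10.3 and 9.85 for Col4a6-201. Col4a3 over Col4a4 was 1.81 in replicate 1 and 1.11 in replicate 2, at levels under 1 TPM. Col9a1 and Col19a1 lie tail to tail 9205 bases apart and stood at 27.9 and 0.085 TPM on average.

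Glycine triplets were counted as runs of at least 5 codons GGN spaced 3 codons apart. This feature was not used to choose the genes, but it underlies the classes. The longest complete coding sequence annotated for each gene was used, whether or not reads lay on it. For several genes that was a form with few or no counts in these libraries. Among them are the long forms of Col9a1 and Col18a1, described below. The forms used for Col4a5, Col25a1, Col11a2 and Col6a5 had 0 counts in both libraries. Those used for Col14a1, Col26a1 and Col6a3 had fewer counts than another form of the gene. Fibrillar genes had 2 to 3 runs, with a longest run of 216 to 344 triplets and a median of 338. Col3a1 had the longest at 344 triplets, Col1a1 had 338 and Col1a2 and Col2a1 had 339 each, whereas Col24a1 had 216 and Col27a1 217. Type IV genes had 16 to 24 runs, the longest of 39 to 66 triplets, and Col4a1 had 16 runs and a longest run of 40. FACIT genes had a longest run of 32 to 113 triplets, and 113 was shared by the 3 type IX genes and Col22a1. Exons of 54 bases, like those printed for Col3a1, Col1a1 and Col1a2, made up 47.0% of 649 coding exons of fibrillar genes (305 exons). They made up 4.05% of 296 in type IV genes, 25.2% of 432 in FACIT genes and 6.86% of 627 in the others.

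**Figure D3:**
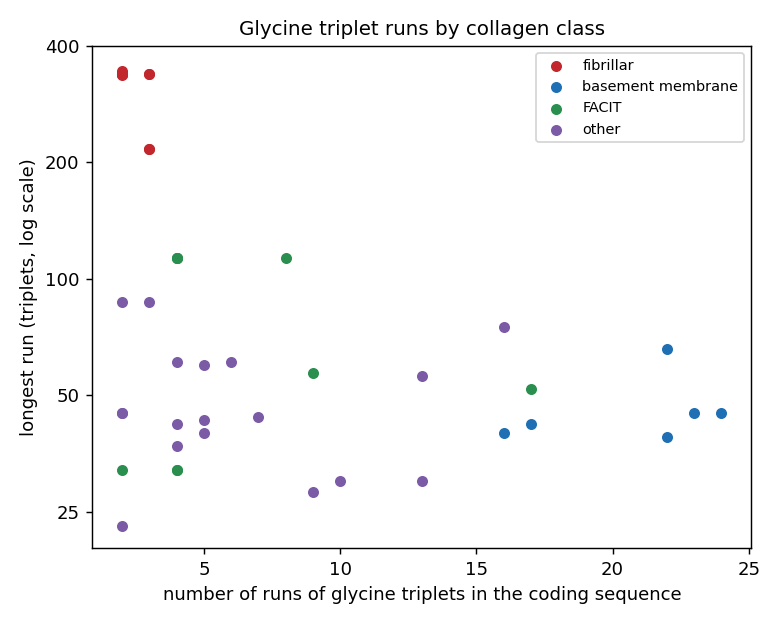
Longest run of glycine triplets on a log scale against the number of runs, in the longest complete coding sequence annotated for each gene. Each point is 1 collagen gene, coloured by class, and genes with equal values overlap. Fibrillar genes lie at the upper left with 2 to 3 runs of up to 344 triplets, and type IV genes lie at the right with 16 to 24 runs.

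Annotated transcripts were compared by the share of a gene's TPM on each. In all 30 detected members the same transcript led in both libraries, and in 15 it held at least 90% of the gene's TPM in both. The leading transcript was protein coding in 29. Protein-coding transcripts together held at least 90% of the TPM in 20 members and at least 90% of the counts in 25. Short fragments weigh more in TPM than in counts, because TPM divides by length.

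Reads of 2 genes with alternative starts lay almost wholly on transcripts from one of them, and the DNA before each start used is shown for that reason. Col9a1 has a long form that begins upstream and a short form that begins 17577 bases downstream. The short form, Col9a1-202 with 680 codons, had 2019 expected counts in replicate 1 and 1810 in replicate 2. The long form, Col9a1-201 with 921 codons, had 3.52 counts in replicate 1 and 0 in replicate 2. In the textbook account, cartilage uses the long form and eye and other tissues the short one.

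Col18a1 has a short form from an upstream start and longer forms from starts at least 52602 bases downstream. Col18a1-202, the short form with 1315 codons, had 25693 counts in replicate 1 and 24210 in replicate 2. The longer Col18a1-201 of 1774 codons had 59.4 counts in replicate 1 and 40.2 in replicate 2, and Col18a1-203 of 1527 codons had 57.1 and 31.4. As background, the short form is the one of vascular and epithelial basement membranes, and the longer forms are best known from liver. Liver markers were higher in replicate 1 in these libraries, and their part in those counts was not tested.

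Bases before the 2 starts in use are given from RefSeq on GRCm38.p6, 5′ to 3′ in the sense of the gene. They lie at chr1:24194953-24195186 on the plus strand for Col9a1 and chr10:77166549-77166780 on the minus strand for Col18a1. Capitals mark 3 short motifs searched on both strands. GGGCGG, the box of Sp-family factors, reads CCGCCC when on the other strand. CCAAT, the box of the factor NF-Y, reads ATTGG there. TATAAA, the core of the TATA box, was also searched and reads TTTATA there.
Col9a1: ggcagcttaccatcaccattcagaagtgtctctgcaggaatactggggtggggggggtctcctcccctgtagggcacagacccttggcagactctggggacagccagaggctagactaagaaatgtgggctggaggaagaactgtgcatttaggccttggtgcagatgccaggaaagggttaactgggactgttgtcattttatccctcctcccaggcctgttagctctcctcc
Col18a1: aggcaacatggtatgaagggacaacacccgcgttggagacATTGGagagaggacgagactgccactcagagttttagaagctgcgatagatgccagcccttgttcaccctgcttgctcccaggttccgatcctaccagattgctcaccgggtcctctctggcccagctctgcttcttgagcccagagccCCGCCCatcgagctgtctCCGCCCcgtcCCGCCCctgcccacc
The stretches printed stop where an annotated exon begins, which leaves 234 bases for Col9a1 and 232 for Col18a1. The stretch before Col18a1 held 3 matches to GGGCGG and 1 to CCAAT, and the stretch printed for the short form of Col9a1 held none of the motifs. In the 250 bases before RefSeq starts, GGGCGG was found on either strand in 57.9% of 38 starts of 35 matched members, beside 32.7% of 32851 starts of all genes. CCAAT was found in 34.2% of the members' starts and 33.8% of all, and TATAAA in 13.2% and 12.4%. Col9a1 is among the members with CCAAT in the 250 bases searched, though not in the stretch printed. In the stretches printed no match overlaps another, and a match is a description of sequence only.

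Col2a1 was assigned mainly to its embryonic form. Exon 2, at chr15:98000403-98000606 on the minus strand (mm10), encodes a cysteine-rich domain that is kept in precursor cells and skipped in mature cartilage. It is printed from GENCODE M21 with in-frame TGT and TGC codons, which encode cysteine, in capitals.
Col2a1: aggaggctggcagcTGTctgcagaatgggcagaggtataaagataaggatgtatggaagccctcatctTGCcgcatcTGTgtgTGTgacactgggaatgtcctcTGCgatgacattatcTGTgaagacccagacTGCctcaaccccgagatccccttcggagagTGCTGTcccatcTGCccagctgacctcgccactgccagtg
The exon is 204 bases long and holds 10 such codons. Col2a1-201, which contains it, held 78.5% of the gene's TPM in replicate 1 and 85.6% in replicate 2, with 5984 and 5802 counts. Col2a1-202, which lacks it, held 17.6% in replicate 1 and 10.8% in replicate 2, with 1279 and 695 counts. The posterior standard deviation of those counts was 287 reads in replicate 1 and 268 in replicate 2, so the split between the forms is uncertain by that much.

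In 5 detected members the leading transcript held under 60% of TPM in both libraries. These were Col16a1, Col13a1, Col12a1, Col6a3 and Col27a1. Col13a1, known for many splice forms, divided mainly between Col13a1-205 with 39.9% in replicate 1 and 35.3% in replicate 2 and Col13a1-204 with 36.3% and 30.3%. In Col16a1 the leading transcript was Col16a1-207, a noncoding fragment of 833 bases, with 30.8% of TPM in replicate 1 and 25.6% in replicate 2 but 7.09% and 5.93% of counts. In Col12a1 a fragment of 1784 bases, Col12a1-204, led by TPM with 30.4% in replicate 1 and 30.8% in replicate 2, while the full transcript of 11511 bases led by counts. Col6a3 had 34.3% of its TPM in replicate 1 and 44.2% in replicate 2 on a retained-intron fragment of 646 bases, and Col6a3-202 held 82.3% and 78.7% of its counts. Col27a1-201, its full transcript of 7612 bases, held 40.9% of TPM in replicate 1 and 42.4% in replicate 2.

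Over protein-coding transcripts alone, an alternative chosen after seeing the data, mean levels were lower by over 1.5 times in 5 detected members. Col16a1 then stood at 14.1 TPM against 28.8 TPM over all transcripts, and Col12a1 at 6.58 TPM against 11.8 TPM. Col6a3 stood at 5.00 TPM against 8.51 TPM, Col27a1 at 1.23 TPM against 2.94 TPM, and Col25a1 at 1.56 TPM against 2.38 TPM. All 30 remained detected. Col7a1 also differed, with 0.27 TPM in replicate 1 and 0.16 in replicate 2 on coding transcripts, and its counts of 65 and 41 ran opposite to its gene TPM.

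**Figure D4:**
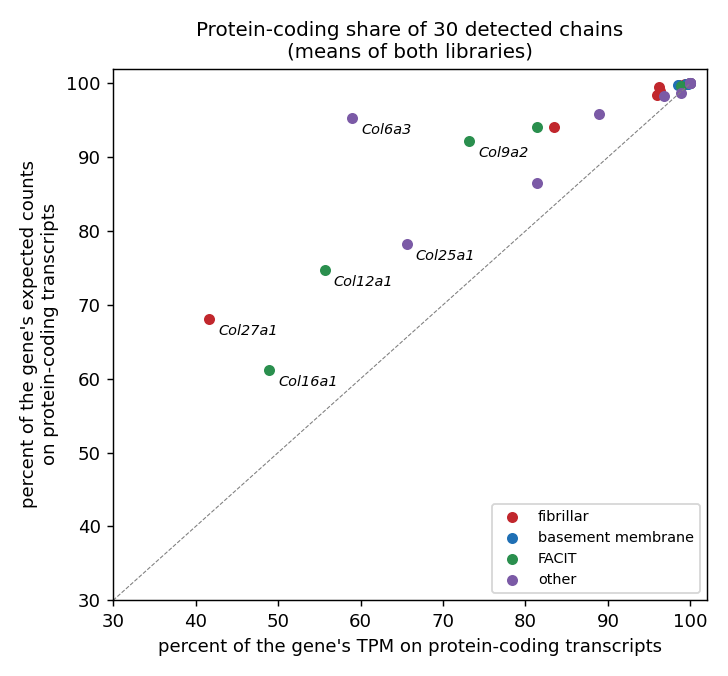
Percent of each detected gene's expected counts on protein-coding transcripts (vertical axis) against the percent of its TPM (horizontal axis), as means of both libraries, 1 point per gene and coloured by class. Most of the 30 genes sit at the upper right, and Col27a1, Col16a1, Col12a1 and Col6a3 lie farthest left, above the dashed line of equal shares.

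Differences between the libraries were tested with an exact conditional binomial test over the 17970 genes whose counts in both libraries summed to 20 or more. Only counting error enters this test, which therefore speaks of these 2 libraries and of no condition. Of 39 members tested, 1 passed both an adjusted p under 0.05 and an absolute log2 ratio of at least 1, the rule for a call, beside 1.57% of all genes tested. It was higher in replicate 1, as were 0.863% of all genes, and no member was called lower, beside 0.707% of all genes. That gene was Col17a1, with 48 counts in replicate 1 and 18 in replicate 2 (log2 ratio of replicate 1 over replicate 2 of 1.28, 95% interval 0.49 to 2.17, adjusted p = 0.0128, exact binomial test with Benjamini-Hochberg adjustment).

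Col17a1 belongs to the basal layer of skin, and the epidermis markers were therefore set beside it. Of 6, Perp alone was detected in both libraries, and the summed level was 86.7 TPM in replicate 1 and 84.6 in replicate 2, of which Perp, also present in other epithelia, held 82.7 and 82.0 TPM. Krt5 had 76.3 counts in replicate 1 and 39 in replicate 2, Krt14 had 62 and 35, and Dsg3 had 3 and 5. Krt15 had 11 counts in replicate 1 and 13 in replicate 2, and Trp63 had 18 and 24. None of the list was called, beside 1.57% of all genes tested. Krt5 did pass the adjusted p without the fold threshold, at a log2 ratio of 0.84. The part of skin RNA in the Col17a1 result was not tested. An exact test in edgeR was also run, with a common dispersion in place of counting error alone. That dispersion was estimated from these same 2 libraries taken as 1 group, so it holds the difference under test. The test can flag only genes that differ more than most genes do here, and is no independent check of replicate spread. In edgeR's exact test Col17a1 had an adjusted p of 0.0928 and no member was called, beside 0.874% of all genes tested. Of 39 members, 4 had an unadjusted p under 0.05 there, a count for which the share of all genes was not worked out.

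Without the fold threshold, 9 members passed the adjusted p, beside 10.0% of all genes tested. In edgeR's exact test 1 of 39 did, Col22a1 (adjusted p = 0.00619), and the share of all genes there was not worked out. In the binomial test, 4 members were higher in replicate 1, beside 5.73% of all genes, and 5 were lower, beside 4.28%. Abundant genes pass such a test at small ratios. Among genes whose counts summed to at least 10000, 5 of 10 members passed, beside 29.2% of all 1263 such genes. The log2 ratio of replicate 1 over replicate 2 was 0.18 for Col1a1, 0.07 for Col3a1 and 0.05 for Col1a2, and it was -0.07 for Col4a1 and -0.10 for Col4a2. None of these 5 passed in edgeR's exact test, where Col1a1 had an adjusted p of 0.638 and the other 4 had 1.0 each. The others were Col17a1, Col22a1 at -0.88 (88 counts in replicate 1 and 150 in replicate 2, adjusted p = 0.000175, exact binomial test), Col25a1 at -0.38 and Col23a1 at -0.16.

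Partners of these chains were examined for small shifts in the binomial test alone, naming genes after their values were seen. Over all genes tested, 5.73% passed higher and 4.28% lower in the binomial test, the test used for these lists. Deeply counted genes passed more often, at 29.2% in either direction where counts summed to at least 10000. Of 10 basement membrane partners of type IV collagen, 4 passed the adjusted p lower in replicate 1 and none higher, and Hspg2, the perlecan core protein, had a log2 ratio of -0.16. Of 14 fibril-associated genes, 2 passed higher in replicate 1, Lum at 0.22 and Dcn at 0.19, both small proteoglycans that bind type I fibrils, and Fn1 passed lower at -0.04. Of 7 crosslinking enzymes, 2 passed higher and none lower, Loxl1 at 0.16 and Loxl2 at 0.18, which oxidise lysines. Of 23 folding and hydroxylation genes, 6 passed higher and 1 lower. Lists also passed in mixed directions, with 1 higher and 2 lower of 17 regulators of collagen genes and 1 higher and 1 lower of 10 receptors. Of 13 genes of collagen breakdown and its inhibitors 1 passed higher and 0 lower, and of 9 procollagen processing genes 0 passed in either direction. Among 10 heart muscle markers 3 passed higher and 4 lower. Over all members tested, the median log2 ratio was 0.03 and its median size 0.09, beside 0.01 and 0.10 over all genes tested.

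**Figure D5:**
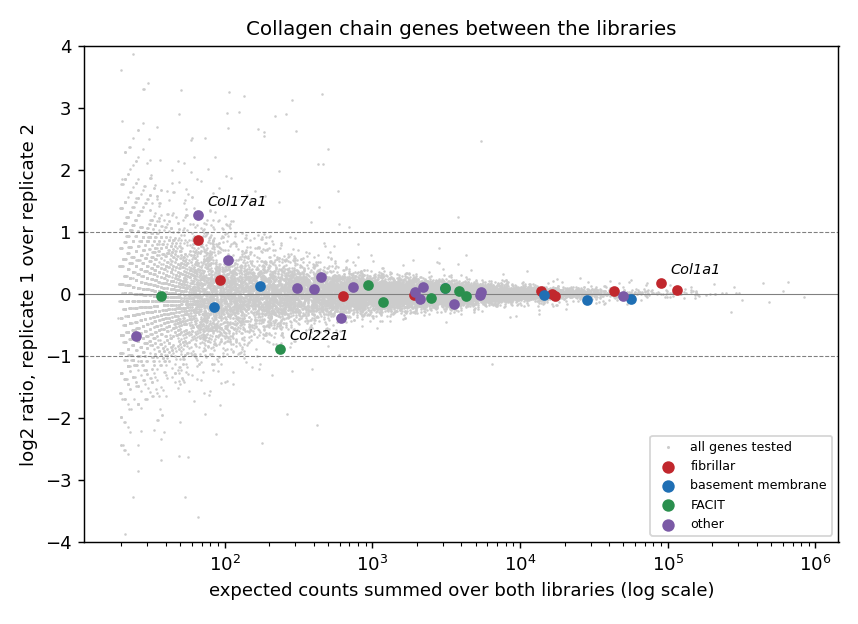
Log2 ratio of replicate 1 over replicate 2 against expected counts summed over both libraries on a log scale, with all genes tested in grey and collagen chain genes coloured by class; 27 genes lie beyond the plotted range and dashed lines mark the fold threshold. Col17a1 is the member above the upper line, and Col1a1 lies at 0.18 on the right.

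Genes that fold, process and anchor collagen were measured beside the chains, from lists fixed with earlier results of these data known. All 23 genes of folding and hydroxylation in the endoplasmic reticulum were detected, at a median of 47.2 ± 1.34 TPM (SD, n = 2). None was called between the libraries, beside 1.57% of all genes tested. Serpinh1, the collagen chaperone HSP47, led with 1030 TPM in replicate 1 and 1014 in replicate 2, above every collagen chain. Hspa5, a general chaperone, averaged 716 TPM, and Pdia3, a disulfide isomerase, averaged 505 TPM.

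Of 9 genes of procollagen processing, 6 were detected. Pcolce, an enhancer of C-propeptide removal, averaged 88.5 TPM, Bmp1, the protease it enhances, 31.7 TPM, and Furin, an activating protease, 19.7 TPM. Adamts14, Tll2 and Pcolce2 were under 1 TPM in both libraries. Of 7 crosslinking enzymes, 6 were detected, led by Tgm2, a transglutaminase, at 178.7 TPM, Pxdn, the peroxidase that crosslinks type IV collagen, at 99.9 TPM, and Loxl2 at 67.9 TPM. Loxl4, another lysyl oxidase, averaged 0.175 TPM.

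Fibril-associated proteins were detected for 12 of 14 genes. Sparc, a collagen-binding glycoprotein, had 1103 TPM in replicate 1 and 1085 in replicate 2, Fn1, which guides fibril assembly, averaged 336 TPM, and Postn, a cushion matrix protein, averaged 184 TPM. Kera and Tnxb were under 1 TPM in both libraries. All 10 basement membrane partners were detected, led by Nid2 at 160.9 TPM, a linker of laminin to type IV collagen, and the laminin chains Lama4 at 118 TPM and Lamc1 at 109 TPM.

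Receptors for collagen were detected for 6 of 10 genes. Itgb1, the shared beta subunit of collagen-binding integrins, averaged 371 TPM, Ddr1, a receptor kinase, 128 TPM, and Itga1 25.9 TPM, while Itga10, Itga11 and Lair1 were under 1 TPM in both libraries. Gp6, the collagen receptor of platelets, had 29 counts in replicate 1 and 72 in replicate 2 (log2 ratio -1.41, adjusted p = 0.000156, exact binomial test). It was the 1 of 10 receptors called, lower in replicate 1, beside 0.707% of all genes tested. Of 13 genes of collagen breakdown and its inhibitors, 8 were detected, led by the proteases Mmp14 at 99.7 TPM, Mmp2 at 96.1 TPM and Mmp15 at 67.4 TPM. Mmp8, Mmp9, Mmp13 and the inhibitor Timp4 were under 1 TPM in both libraries, and the interstitial collagenase Mmp1a had no counts. All 17 regulators of collagen genes were detected, led by Nfyc, a subunit of the factor that binds CCAAT, at 81.9 TPM, the growth factor Tgfb2 at 55.9 TPM and the matricellular protein Ccn2 at 45.7 TPM.

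Cell types that are known sources of collagen had all their markers present. The 9 markers of valve mesenchyme and fibroblasts had a median of 21.9 ± 1.49 TPM, led by Vcan, Tcf21 and Sox9. For the 8 epicardial markers the median was 20.0 ± 0.502 TPM, led by Krt19, Upk3b and Aldh1a2, and the 8 endothelial markers 54.8 ± 1.53 TPM, led by Plvap, Eng and Emcn. Which of these cells made which chain cannot be told apart in a library of mixed cells.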

How the data were processed

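Poly(A)+ RNA of embryonic mouse heart tissue was measured in 2 libraries, replicates 1 and 2 of 1 group, and the samples were numbered per the labels. The deposited gene and transcript tables give expected counts (estimated reads per feature), TPM and FPKM (scaled by effective length, per the file headers), posterior mean counts and TPM, a posterior standard deviation of each count, and the percent of a gene's TPM on each transcript, all made by the authors. The annotations were GENCODE M21 (main) and M4 on mm10, per the text deposited with the tables. Which aligner and counter were run, in which version and with which strand setting, is not given in the sources used here. Deposited TPM covers every row, including 96 ERCC rows and 26248 numeric rows, and the gene table holds 55536 named genes. Rows that name no gene, which held 3.58% of counts in replicate 1 and 3.63% in replicate 2, stayed out of the tests.

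Levels are means ± SD over both libraries. Counts were rounded to whole numbers, scaled by TMM (edgeR 4.0.16) and compared by the exact conditional binomial test in scipy 1.17.1 (two-sided) over all named genes whose summed count reached 20. Benjamini-Hochberg adjustment ran over all genes tested, with calls at an adjusted p under 0.05 and an absolute log2 ratio of at least 1. The script was tested on simulated data. Donor identifiers in the labels are the same for both libraries and biosamples differ. The binomial p-values measure counting error between these 2 libraries and no spread between replicates. They are not 1 library deposited again, since counts differed by a chi-square of 80751 on 20135 degrees of freedom. Without molecular identifiers, intervals cover counting error only. Transcript types, coding sequences and exons came from GENCODE M21, and bases before starts from RefSeq. RefSeq proteins were not used here, so no amino acid sequence is given. DESeq2 1.42.0 gave alternative size factors. The common dispersion of edgeR's exact test was estimated from the 2 libraries taken as 1 group.

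The members and lists were chosen with earlier results of these data known. The rule names every collagen member. Of each list it names the 3 highest, up to 4 members under 1 TPM and any called, and it names detected members whose leading transcript was under 60% of TPM in both libraries or differed between them.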

Additional observations from a re-analysis of the deposited data

How the results depend on the processing

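No paired analysis was possible because the design has a single group. The 30 members detected became 29 to 32 under M4, posterior mean TPM, FPKM, coding transcripts alone and other detection rules at 0.5 or 1 TPM, and 23 at 5 TPM. Without each replicate in turn the count ranged from 30 to 32, the summed TPM from 2023 to 2035 and the fibrillar share from 59.1 to 60.9%. The sum, 2029 TPM, was 2125 in M4, 1995 by posterior mean, 1400 in FPKM, 2200 rescaled to named genes and 2772 rescaled to nuclear protein-coding genes without globins. Over protein-coding transcripts alone, chosen after seeing the data, it was 1965. The fibrillar share stayed between 59.1 and 60.9% and 15 of 21 pairs kept the first chain higher in all alternatives run, with no pair reversed. Members called numbered 1 at the main settings, 0 at a summed count of at least 100 (Col17a1 was not tested there), 0 by edgeR's exact test and 9 without the fold threshold. At a summed count of at least 100, 10 of 33 members tested had an unadjusted p under 0.05, and in edgeR's test 4 of 39 did. Without the fold threshold edgeR's test passed 1 of 39, Col22a1. The shares of all genes for these counts were not worked out, so they are not read as a result about the members. Over all genes the calls were 282 at the main settings, 60 at a summed count of at least 100, 157 by edgeR's test and 1799 without the fold threshold. Other scalings, M4, posterior mean counts, a summed count of at least 1 and a p of 2 times the smaller tail (also chosen after seeing the data) each called 1 member. The members' median log2 ratio lay between 0.016 and 0.038. Depth limits the members under about 50 counts, such as Col20a1 and Col10a1.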

Other observations

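Annotated genes inside collagen genes were also counted. Gm47302, a microRNA gene model of 141 bases within Col3a1 on the same strand, had 323 expected counts in replicate 1 and 244 in replicate 2, beside 61358 and 54167 for Col3a1. The microRNA genes Mir455 within Col27a1 and Mir711 within Col7a1, both on the strand of their host, had no counts in either library. Slc19a1, a folate carrier on the opposite strand, overlaps Col18a1 by 8825 bases and had 494 counts in replicate 1 and 517 in replicate 2. BX649560.1, on the strand of Col20a1 and overlapping it, had 132 counts in replicate 1 and 90 in replicate 2, more than the 19 and 18 counts of Col20a1 itself.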
